A study of Homo sapiens with 12 samples.

Results

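Mitochondrial ribosomal protein genes encode the proteins of the ribosome inside mitochondria, and 77 of the 27522 gene names on the arrays belonged to them. They were chosen by name: every probe whose accession maps in RefSeq to a symbol made of MRPL or MRPS and a number was taken, with a trailing letter allowed and pseudogenes and antisense genes left out. The 49 MRPL genes stand for the large subunit and the 28 MRPS genes for the small subunit, and none of the 77 genes that RefSeq holds under this rule lacked a probe. The samples were cytoplasmic RNA of U2OS cells, a human osteosarcoma line, transfected with 20 nM of control siRNA or of siRNA against DBP5, GLE1 or IPPK and grown for 48 h. DBP5 is an RNA helicase of mRNA export, GLE1 is its activator at the nuclear pore, and IPPK makes the inositol hexakisphosphate that binds both. Each of 3 slides carried 1 array per siRNA, which gives 12 one-colour arrays and 3 per group. The paper calls the 3 repeats independent experiments. The comparison asks whether losing each export factor left these mRNAs in the cytoplasm at other levels, relative to the other RNAs measured, than in control cells.

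The mitochondrial ribosome translates the few mRNAs encoded in mitochondrial DNA, all of them for subunits of the respiratory chain and ATP synthase. Its RNA comes from mitochondrial DNA, but its proteins are encoded in the nucleus, so that each of their mRNAs has to pass the nuclear pore before it is translated in the cytosol. Many of the proteins have bacterial counterparts, and others are found in mitochondria alone.

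Values are log2 intensities, normalized between arrays, of the brightest probe of each gene. This sets the arrays to a common level, so lower and higher are relative to the other cytoplasmic RNAs on the arrays. A change shared by most cytoplasmic mRNAs, in cells where the paper saw poly(A)+ RNA build up in the nucleus, was not measured. A gene entered the test if some siRNA group had its probe well above background on each of its 3 arrays, and 20821 genes did. It was called lower or higher when limma, fitted over all 12 arrays with 1 mean per siRNA, gave a Benjamini-Hochberg adjusted p under 0.05 over all genes tested. All 77 members were well above background on all 12 arrays. The control arrays had 77.4%, 75.8% and 74.9% of all probes well above background, and the DBP5 arrays 77.8%, 76.3% and 75.7%. On the GLE1 arrays the shares were 77.1%, 73.5% and 75%, and on the IPPK arrays 71%, 73.8% and 72.1%. The 3 arrays per group limit the precision of every value. In a bulk culture, fewer cells of a type and less RNA per cell cannot be told apart.

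Each siRNA lowered its target. DDX19B (NM_007242), the gene of DBP5, read 10.23, 10.15 and 10.15 on the control arrays and 6.25, 6.21 and 6.20 after DBP5 siRNA, a ratio of 0.0643 ± 0.00121 (SD, n = 3). Its close paralog DDX19A (NM_018332) was at 0.0537 ± 0.00258 of control on the same arrays. GLE1 (NM_001499) went from 8.29, 8.32 and 8.26 in control to 5.40, 4.85 and 4.72 after GLE1 siRNA, a ratio of 0.102 ± 0.0274 (SD, n = 3). IPPK (NM_022755) went from 9.32, 9.43 and 9.47 to 6.94, 6.95 and 7.05 after IPPK siRNA, a ratio of 0.187 ± 0.00815 (SD, n = 3). In none of these 4 did knock-down and control arrays overlap, and limma gave adjusted p values of 3.0e-11, 2.0e-11, 2.1e-08 and 1.6e-09 in this order. The targets also moved after other siRNAs. With GLE1 siRNA DDX19B was at 0.49, DDX19A at 0.541 and IPPK at 0.821 of control, all called lower. IPPK was at 0.42 of control with DBP5 siRNA, and with IPPK siRNA DDX19A was at 0.301, GLE1 at 0.717 and DDX19B at 0.874, again all called. GLE1 was not called with DBP5 siRNA (0.783).

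The line's identity was checked on 6 mesenchymal markers and some markers of other cell types. Of the 6, VIM, FN1, SPARC, RUNX2 and COL1A1 were well above background on all 12 arrays and COL1A2 on the 3 control arrays. COL1A1, the bone collagen, fell after IPPK (log2 fold change −1.99) and DBP5 knock-down (−0.38), and COL1A2 was not well above background on any array of these 2 groups. RUNX2, a bone transcription factor, fell after IPPK knock-down (−0.70), a call lost with the mean of its probes. SPARC fell after GLE1 knock-down (−0.40), and VIM rose after DBP5 knock-down (0.31), a call lost with 75th percentile scaling and without several single arrays. Among the other markers, HBB and GFAP were not well above background in any full group. EPCAM, PTPRC and CD3E were well above background on all 3 control arrays, the last 2 at low intensity. EPCAM fell after IPPK (−0.92) and DBP5 knock-down (−0.61), and the DBP5 call was lost without any 1 control or DBP5 array. CDH1, the epithelial cadherin, was below that limit on all 3 control arrays and above it on all 3 DBP5, all 3 GLE1 and 2 IPPK arrays, at 6.39, 6.94 and 7.02 after GLE1 knock-down. ALB was below it in control and with IPPK siRNA and above it on all 3 DBP5 and 2 GLE1 arrays. No fold change is given for CDH1 and ALB, which lay at background in control, and not every marker is described. The part of these marker changes in the results on the members was not tested.

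Calls after DBP5 knock-down went in both directions, among the members as over all genes, and most members moved little. Of the 77 members, 22 were lower (28.6%, against 27.5% of all genes tested) and 17 higher (22.1%, against 26.7%). Large subunit genes were lower in 16 of 49 cases, 32.7%, against 27.5% of all genes tested, and higher in 9, 18.4%, against 26.7% of all genes. Of the 28 small subunit genes, 6 were lower (21.4%) and 8 higher (28.6%). The median log2 fold change was −0.07 for the large and 0.08 for the small subunit, beside −0.02 for all genes. After 75th percentile scaling these medians were −0.11 and 0.05, beside −0.07 for all genes. On the 3 slides the median for the large subunit was −0.07, −0.11 and −0.01, and for the small subunit 0.03, 0.05 and 0.06. Only 1 large subunit gene, MRPL42, was called and at least 1.5-fold lower, against 12.1% of all genes. Higher by that measure were MRPL18, MRPL19, MRPS14 and MRPS9, against 12.6% of all genes. The count of 8 small subunit genes that were higher was 5 without control replicate 1, 5 without control replicate 3 and 5 of 11 called (45.5%, against 57.1% of the 14 called) when arrays were scaled to their 75th percentile instead.

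**Figure D1:**
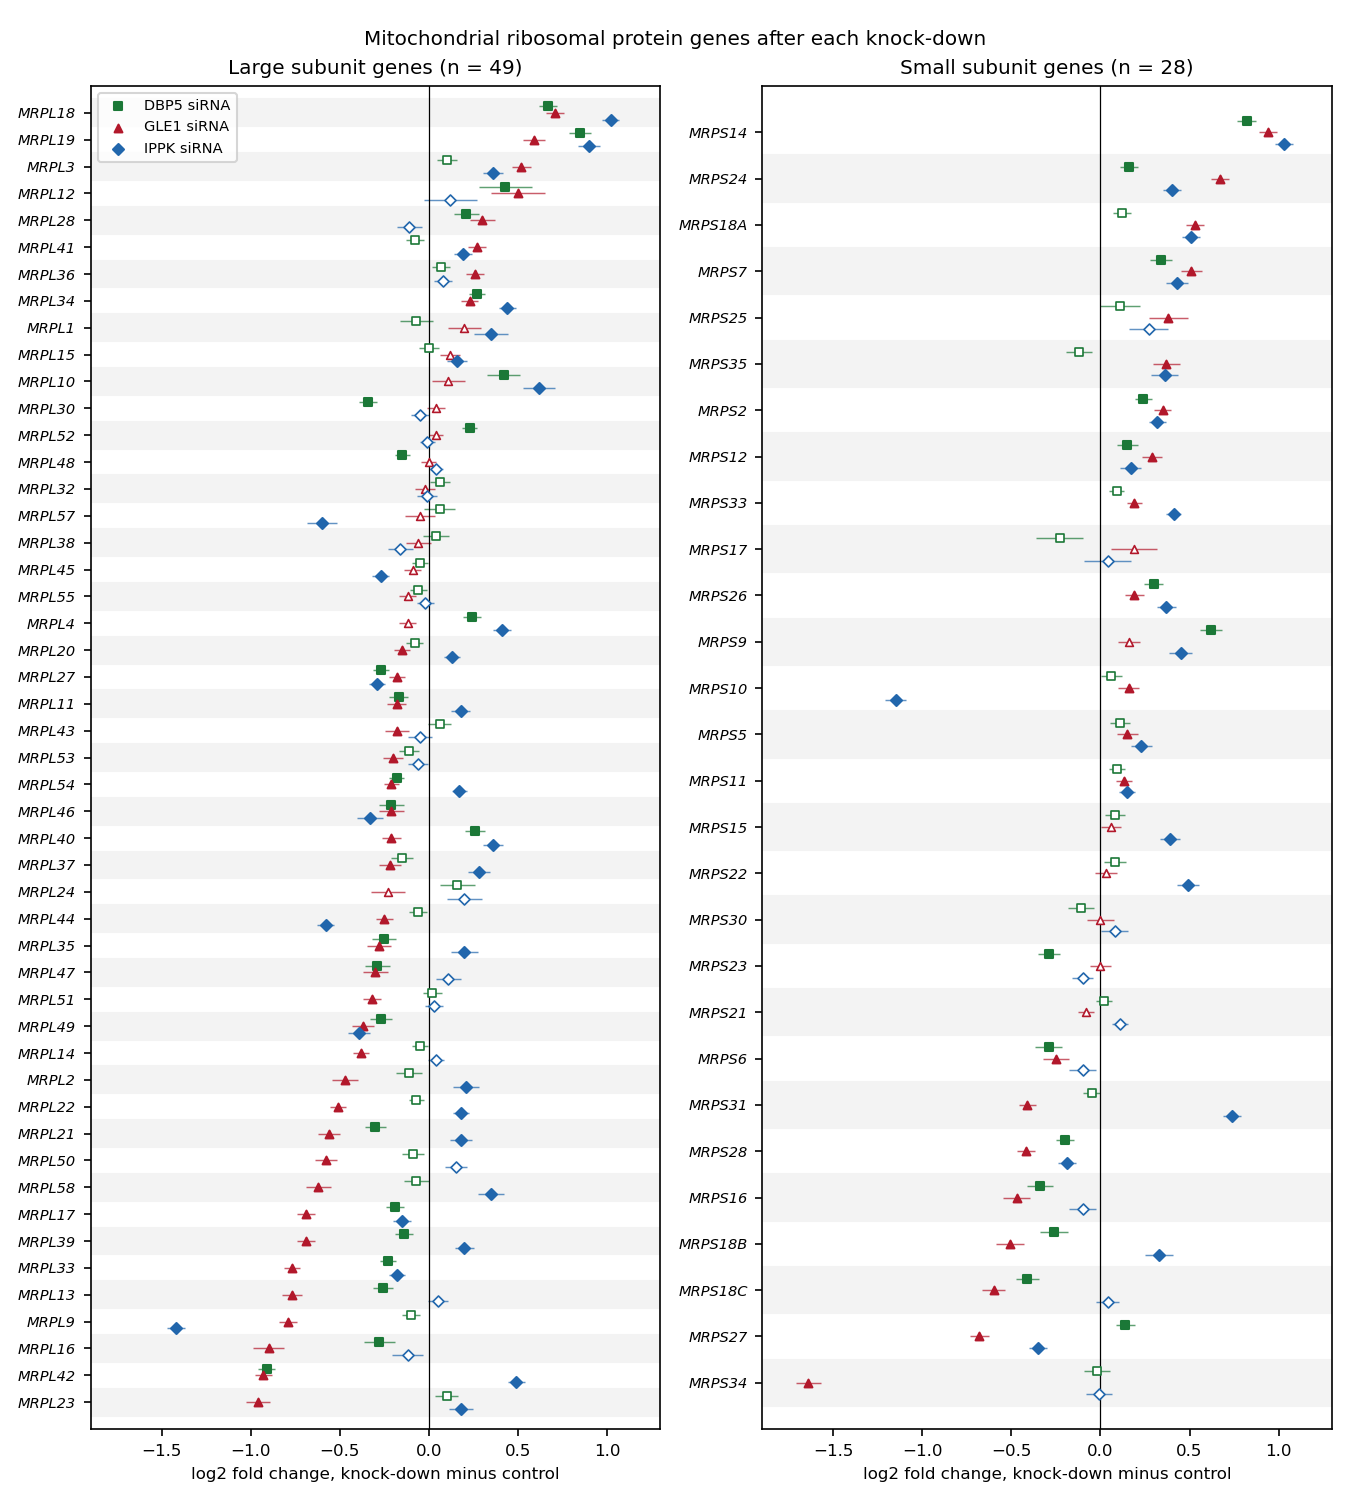
Log2 fold change against control (x axis) of the 49 large subunit genes (left) and the 28 small subunit genes (right), ordered by the value after GLE1 knock-down. Points are limma estimates from 3 arrays per group, bars are 1 SE, and filled points have an adjusted p under 0.05; MRPS34 after GLE1 knock-down lies farthest left at −1.64.

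MRPL42, a large subunit protein with no bacterial counterpart, had the largest fall after DBP5 knock-down. It read 11.26, 11.28 and 11.24 on the control arrays and 10.42, 10.36 and 10.27 on the DBP5 arrays. All 3 DBP5 arrays lay below all 3 control arrays, with log2 differences of −0.85, −0.92 and −0.97 within the slides. The limma log2 fold change was −0.91 ± 0.047 (SE, adjusted p = 1.1e-07), a ratio of 0.531 ± 0.0265 (SD, n = 3). The next falls in the large subunit were those of MRPL30 (−0.34), MRPL21 (−0.30) and MRPL47 (−0.29), all homologs of bacterial ribosomal proteins. MRPL30 read 13.50, 13.55 and 13.53 in control and 13.15, 13.21 and 13.21 after DBP5 knock-down, with no overlap (limma adjusted p = 0.000198). It was not called after GLE1 (0.04) or IPPK knock-down (−0.05). Within slides MRPL21 differed by −0.20, −0.34 and −0.35 and MRPL47 by −0.21, −0.43 and −0.22.

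In the small subunit the largest fall after DBP5 knock-down was that of MRPS18C, 1 of 3 human homologs of a single bacterial protein. Its values were 15.12, 15.18 and 15.03 in control and 14.78, 14.70 and 14.63 after the knock-down. The 3 DBP5 arrays were all lower than the control arrays, with a log2 fold change of −0.41 ± 0.065 (SE, limma adjusted p = 0.000343). Its second, dimmer probe gave −0.38. MRPS16 (−0.34), MRPS23 (−0.29) and MRPS6 (−0.29) followed, each with all 3 DBP5 arrays below all control arrays. The second, dimmer probe of MRPS16 gave −0.36 and was not called (limma adjusted p = 0.0763). MRPS23, which has no bacterial counterpart, was called after DBP5 knock-down and in neither other comparison, at 12.48, 12.61 and 12.42 against 12.80, 12.88 and 12.71 in control. Within slides MRPS23 differed by −0.31, −0.27 and −0.29, MRPS16 by −0.17, −0.45 and −0.40, and MRPS6 by −0.22, −0.40 and −0.24.

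MRPL19, by its brightest probe, rose most among large subunit genes after DBP5 knock-down. Its control arrays read 12.72, 12.92 and 12.86, and its DBP5 arrays 13.69, 13.67 and 13.68. The DBP5 arrays were close to each other and all above control, at 1.8 ± 0.0109 times the control mean (SD, n = 3; limma adjusted p = 9.8e-07). MRPL18, which belongs to the family of proteins that bind 5S ribosomal RNA in other ribosomes, read 14.21, 14.25 and 14.26 in control and 14.94, 14.93 and 14.86 after DBP5 knock-down. Again no DBP5 array reached down to the control range, and the ratio was 1.59 ± 0.0516 (SD, n = 3; limma adjusted p = 1.2e-06). The second, much dimmer probe of MRPL19 was called higher in all 3 comparisons by other amounts, 0.32, 0.97 and 0.66 in the order DBP5, GLE1, IPPK. By that probe its rise after DBP5 knock-down was smaller than that of MRPL18. Within slides the rise was 0.97, 0.75 and 0.82 for the brightest probe of MRPL19 and 0.73, 0.69 and 0.60 for MRPL18.

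The stalk of the large subunit, where translation factors bind, holds MRPL10 and MRPL12. MRPL10 rose by 0.42 ± 0.091 (SE, limma adjusted p = 0.00248), with 14.01, 14.14 and 14.02 on the DBP5 arrays against 13.80, 13.44 and 13.68 in control. MRPL12 rose by 0.43 ± 0.15 (SE, limma adjusted p = 0.0311), from 13.25, 13.20 and 13.34 to 13.46, 13.79 and 13.83. All 3 DBP5 arrays were above control for both genes, but control values of MRPL10 and DBP5 values of MRPL12 were spread widely. The MRPL12 call was lost without control replicate 1 (limma adjusted p = 0.0732), control replicate 2 (0.0857), DBP5 replicate 2 (0.0941) or DBP5 replicate 3 (0.105). Its second probe gave 0.48 (limma adjusted p = 0.000141). Within slides the differences were 0.21, 0.71 and 0.34 for MRPL10 and 0.21, 0.58 and 0.49 for MRPL12.

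MRPS14, a homolog of a bacterial small subunit protein, had the largest rise of its subunit after DBP5 knock-down. It read 11.93, 12 and 11.86 in control and 12.81, 12.72 and 12.71 on the DBP5 arrays. The groups were clearly apart, with a ratio of 1.76 ± 0.0721 (SD, n = 3; limma adjusted p = 4.2e-07). MRPS9 went from 13.28, 13.31 and 13.30 to 14.02, 13.80 and 13.91, a rise of 0.62 ± 0.064 (SE, limma adjusted p = 1.5e-05) on all 3 arrays. After GLE1 knock-down MRPS9 was at 0.16 (limma adjusted p = 0.0527) and not called. MRPS7 (0.34) and MRPS26 (0.30) rose less, again on all 3 DBP5 arrays. Within slides the rise was 0.89, 0.72 and 0.85 for MRPS14, 0.74, 0.50 and 0.61 for MRPS9, 0.28, 0.43 and 0.33 for MRPS7, and 0.17, 0.40 and 0.33 for MRPS26.

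Knock-down of GLE1, by limma, lowered most large subunit genes and raised many small subunit genes. It lowered 28 of the 49 large subunit genes, 57.1%, against 31.5% of all genes tested, and raised 8, 16.3%, against 30.6%. In the small subunit 8 of 28 genes fell (28.6%) and 13 rose (46.4%). The median log2 fold change was −0.20 in the large and 0.14 in the small subunit, beside 0.01 over all genes, and within the slides it was −0.19, −0.21 and −0.16 in the large and 0.12, 0.07 and 0.12 in the small. At least 1.5-fold lower were 9 large subunit genes and 3 small ones (MRPS34, MRPS27 and MRPS18C), against 17.7% of all genes. At least 1.5-fold higher were MRPL18, MRPL19, MRPS14 and MRPS24, against 16% of all genes. Structures of the mitochondrial ribosome place MRPS18A and MRPS30 in the large subunit in spite of their names; counted there, a choice made after seeing the data, 28 large subunit genes fell and 9 rose, and 8 small subunit genes fell and 12 rose.

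MRPS34, a small subunit protein with no bacterial counterpart, had the largest change of any member in any comparison with control. The control arrays read 13.79, 13.67 and 13.82 and the GLE1 arrays 12.18, 12.10 and 12.08. All 3 GLE1 arrays were far below control, at −1.61, −1.57 and −1.74 within slides, and the ratio was 0.321 ± 0.0109 (SD, n = 3). The log2 fold change was −1.64 ± 0.072 (SE, limma adjusted p = 1.6e-08). The DBP5 arrays, at 13.59, 13.81 and 13.82, and the IPPK arrays, at 13.81, 13.75 and 13.69, overlapped the control range. Tested directly by limma, the GLE1 arrays were lower than the DBP5 arrays (−1.62) and the IPPK arrays (−1.63).

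MRPS27, which carries the repeats of RNA-binding pentatricopeptide proteins, fell to 12.42, 12.25 and 12.31 on the GLE1 arrays from 13.03, 12.95 and 13.02. None of the GLE1 arrays reached the control range, and limma gave −0.68 ± 0.052 (SE, adjusted p = 9.7e-07). Of the 3 homologs of one bacterial protein, MRPS18C (−0.60) and MRPS18B (−0.51) fell after GLE1 knock-down, and MRPS18A rose by 0.53. MRPS18A went from 12.51, 12.44 and 12.45 to 13.02, 12.96 and 13.02 (limma adjusted p = 4.3e-06), and MRPS18B from 15.64, 15.61 and 15.45 to 15.16, 14.90 and 15.11 (adjusted p = 0.000199). All 3 GLE1 arrays stood on 1 side of control for each of these genes. The second probe of MRPS18C, which was much dimmer, gave −0.23 and was not called (limma adjusted p = 0.152), and that of MRPS18B gave −0.54. Within slides the differences were −0.61, −0.71 and −0.71 for MRPS27, −0.62, −0.69 and −0.48 for MRPS18C, −0.49, −0.71 and −0.34 for MRPS18B, and 0.51, 0.52 and 0.57 for MRPS18A.

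In the large subunit MRPL23, a protein at the mouth of the exit tunnel, had the largest fall after GLE1 knock-down. It read 13.03, 12.92 and 12.92 in control and 12.02, 12.01 and 11.97 after GLE1 siRNA. The GLE1 arrays were close together and all well under control, with a ratio of 0.515 ± 0.0103 (SD, n = 3; limma adjusted p = 4.3e-07). MRPL42 was at 10.33, 10.36 and 10.32, again below its 3 control arrays, with a ratio of 0.526 ± 0.00845 (SD, n = 3; limma adjusted p = 4.4e-08). MRPL16, a homolog of a bacterial large subunit protein, fell from 14.79, 14.86 and 14.75 to 13.96, 13.83 and 13.92 (−0.90 ± 0.087 SE, limma adjusted p = 5.9e-06). Its 3 GLE1 arrays did not overlap control. MRPL9, a homolog of a bacterial large subunit protein, fell from 14.99, 15.05 and 14.93 to 14.20, 14.21 and 14.18 (−0.79 ± 0.051 SE, limma adjusted p = 2.4e-07), also with no overlap. Within slides the differences were −1, −0.91 and −0.95 for MRPL23, −0.93, −0.92 and −0.92 for MRPL42, −0.83, −1.03 and −0.83 for MRPL16, and −0.79, −0.84 and −0.75 for MRPL9.

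After DBP5 knock-down MRPL16 was also lower, at 14.71, 14.46 and 14.38 (−0.28, limma adjusted p = 0.0181). That call was lost without control replicate 2 (0.0613), DBP5 replicate 2 (0.0598) or DBP5 replicate 3 (0.0716), and with only the 6 arrays compared (limma adjusted p = 0.0504). MRPS18B was lower after DBP5 knock-down too, at 15.39, 15.30 and 15.23 (−0.26, limma adjusted p = 0.016), all under the control arrays. It was no longer called without control replicate 1 (0.0624), control replicate 2 (0.0516) or DBP5 replicate 3 (0.06).

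The rises after GLE1 knock-down were led by genes that also rose after DBP5 knock-down. MRPS14 reached 12.89, 12.87 and 12.85, a ratio to control of 1.92 ± 0.0291 (SD, n = 3; limma adjusted p = 8.0e-08). MRPL18 reached 15, 14.88 and 14.98 (1.64 ± 0.0684, SD, n = 3) and MRPL19 13.39, 13.50 and 13.40 (1.51 ± 0.0634). None of these arrays overlapped control, and within slides the rise was 0.96, 0.87 and 0.99 for MRPS14, 0.79, 0.64 and 0.72 for MRPL18, and 0.67, 0.58 and 0.54 for MRPL19. MRPS24, a homolog of a bacterial protein at the mRNA entry site, went from 16.62, 16.73 and 16.58 to 17.36, 17.30 and 17.29 (0.67 ± 0.05 SE, limma adjusted p = 7.4e-07), with all 3 arrays above control. MRPL3, a protein near the centre of peptide bond formation in bacterial ribosomes, rose by 0.52 ± 0.056 (SE, limma adjusted p = 1.4e-05), from 13.13, 13.11 and 13.09 to 13.69, 13.53 and 13.66. MRPL12 reached 13.78, 13.78 and 13.75 (0.50, limma adjusted p = 0.0122), above all 3 control arrays, and MRPS7 13.27, 13.15 and 13.14 (0.51, adjusted p = 2.6e-05). Within slides the rise was 0.74, 0.57 and 0.71 for MRPS24, 0.56, 0.43 and 0.57 for MRPL3, 0.53, 0.57 and 0.41 for MRPL12, and 0.54, 0.47 and 0.52 for MRPS7.

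Among the weaker GLE1 calls, MRPS6 was lower (−0.25, limma adjusted p = 0.0129) with all 3 arrays under control, and the call was lost without GLE1 replicate 1 (0.0526). MRPS10 was higher by 0.16 (limma adjusted p = 0.0377), at 13.35, 13.41 and 13.42 against 13.25, 13.25 and 13.21. This call was lost without control replicate 1 (0.0679), control replicate 2 (0.0627), control replicate 3 (0.104), GLE1 replicate 2 (0.097), GLE1 replicate 3 (0.102) or IPPK replicate 2 (0.0545), with 75th percentile scaling (limma adjusted p = 0.123) and with no filter on dim probes (0.0577).

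**Figure D2:**
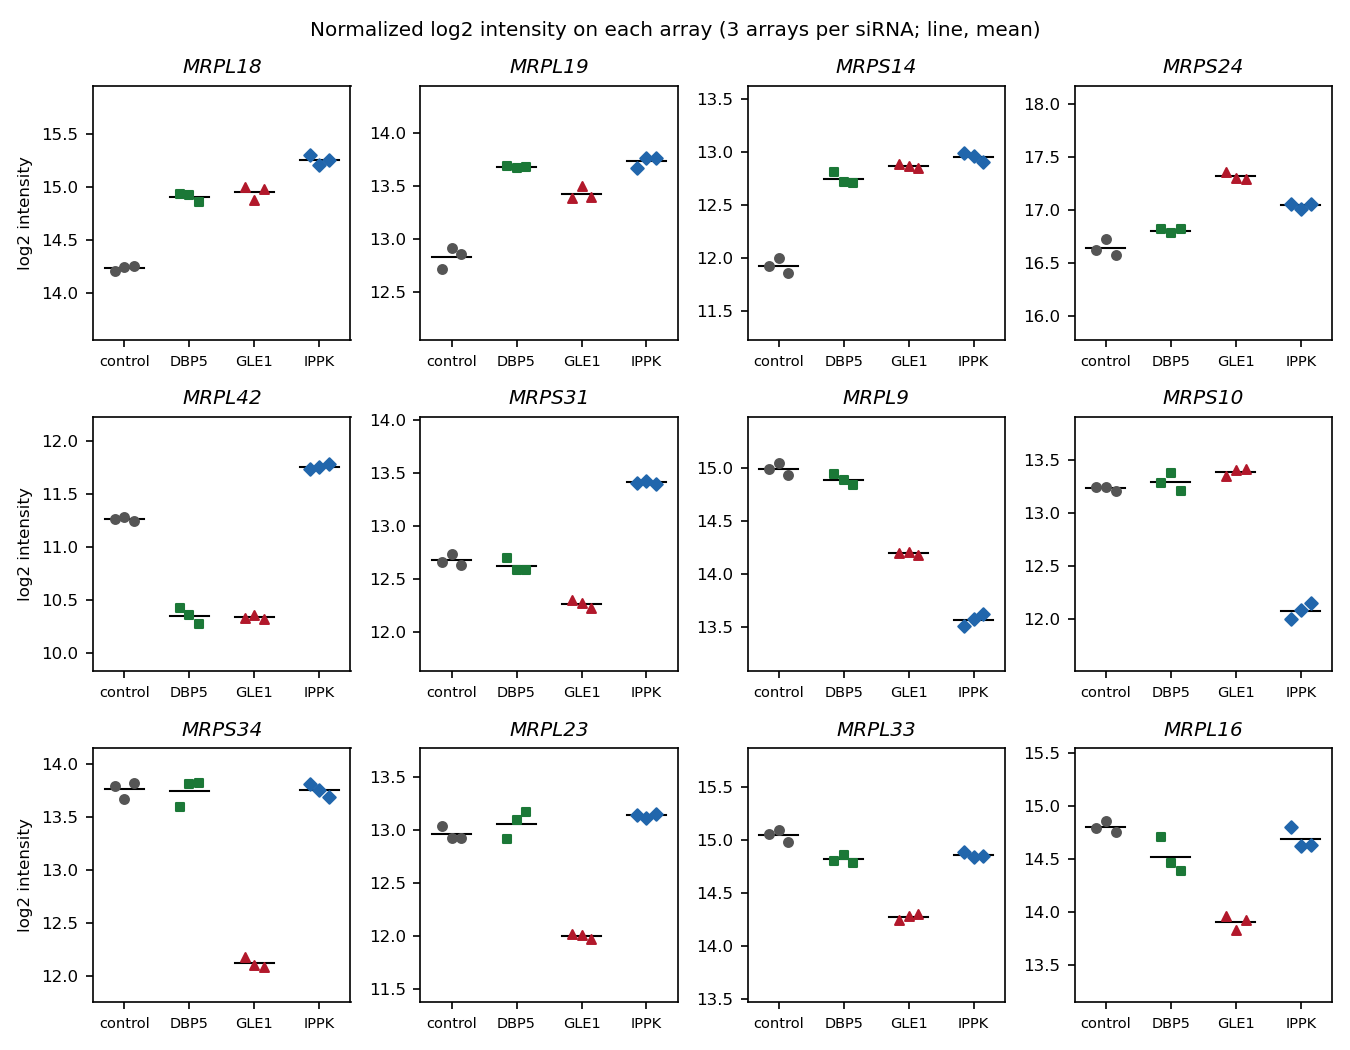
Normalized log2 intensity (y axis) of 12 members on each of the 3 arrays of control, DBP5, GLE1 and IPPK siRNA (x axis); each point is 1 array, each line the mean of 3, and every panel spans the same range of log2 units. The replicates lie close together, MRPS34 is low after GLE1 siRNA alone, and MRPL42 is low after DBP5 and GLE1 siRNA and high after IPPK siRNA.

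Knock-down of IPPK raised many members in both subunits and lowered few, some of them strongly. In the large subunit 9 of 49 genes were lower, 18.4%, against 28% of all genes tested, and 22 were higher, 44.9%, against 27.3%. In the small subunit 3 of 28 were lower (MRPS10, MRPS27 and MRPS28) and 16 were higher (57.1%). The median was 0.12 in the large and 0.25 in the small subunit, beside −0.03 over all genes. With the values of the authors it was 0.07 in the large subunit, beside −0.02 over all genes. Within slides the median was 0.05, 0.06 and 0.14 in the large and 0.28, 0.19 and 0.27 in the small. MRPL9, MRPL57 and MRPS10 were called and at least 1.5-fold lower, against 12.6% of all genes. MRPL18, MRPL19, MRPL10, MRPS14 and MRPS31 were at least 1.5-fold higher, against 13.2% of all genes.

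MRPL9 had the largest change after IPPK knock-down. Its IPPK arrays read 13.51, 13.57 and 13.62 against 14.99, 15.05 and 14.93 in control. They lay below the GLE1 arrays as well as below control, and the ratio to control was 0.373 ± 0.0141 (SD, n = 3; log2 fold change −1.42, limma adjusted p = 7.4e-09). The test between the 2 knock-downs called MRPL9 higher after GLE1 than after IPPK knock-down, by 0.63. MRPS10, a homolog of a bacterial small subunit protein, read 12, 12.09 and 12.16 after IPPK knock-down against 13.25, 13.25 and 13.21 in control. The IPPK arrays were all lower by more than the spread of either group, at 0.449 ± 0.0244 of control (SD, n = 3; limma adjusted p = 7.4e-08). The DBP5 arrays of MRPS10, at 13.29, 13.38 and 13.21, overlapped control. Within slides the IPPK difference was −1.48, −1.48 and −1.31 for MRPL9 and −1.25, −1.17 and −1.05 for MRPS10.

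MRPL57 fell after IPPK knock-down and in neither other comparison. It is a small protein found in mitochondrial ribosomes alone, and its values went from 10.67, 10.95 and 10.69 to 10.17, 10.05 and 10.28 (−0.60 ± 0.086 SE, limma adjusted p = 0.000149). All 3 IPPK arrays were under control, although control replicate 2 stood above the other 2 control arrays. MRPL44, which has the fold of RNase III enzymes, read 11.45, 11.53 and 11.48 against 12.06, 12.09 and 12.05, a change of −0.58 ± 0.049 (SE, limma adjusted p = 2.8e-06) with no overlap. MRPL49 fell by 0.39 (limma adjusted p = 0.000321) to 14.24, 14.31 and 14.26 from 14.64, 14.60 and 14.73. MRPS27 was at 12.64, 12.65 and 12.65 (−0.35, limma adjusted p = 0.000194) and MRPS28, the mitochondrial member of another bacterial protein family, at 14.84, 14.79 and 14.76 (−0.19, adjusted p = 0.00964), each with all 3 arrays under control. Within slides the IPPK differences were −0.50, −0.90 and −0.41 for MRPL57, −0.61, −0.57 and −0.57 for MRPL44, −0.40, −0.30 and −0.47 for MRPL49, −0.39, −0.31 and −0.36 for MRPS27, and −0.17, −0.19 and −0.20 for MRPS28.

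MRPS14 and MRPL18 rose most after IPPK knock-down. MRPS14 read 12.99, 12.96 and 12.91, or 2.04 ± 0.0604 times control (SD, n = 3; limma adjusted p = 7.3e-08). MRPL18 read 15.30, 15.21 and 15.26, or 2.02 ± 0.064 times control (SD, n = 3; limma adjusted p = 5.8e-08). MRPL19 read 13.67, 13.77 and 13.77, or 1.87 ± 0.0751 times control (SD, n = 3; limma adjusted p = 5.6e-07). All 9 of these values were above every control array of the same gene. The stalk protein MRPL10 rose by 0.62 ± 0.091 (SE, limma adjusted p = 0.000182), at 14.36, 14.21 and 14.20. MRPL12 was at 13.01, 13.58 and 13.56, spread across the control range, and was not called (0.12, limma adjusted p = 0.533), but its second probe, nearly as bright, was called higher (0.34, limma adjusted p = 0.00147). Within slides the rise was 1.07, 0.96 and 1.05 for MRPS14, 1.09, 0.96 and 1.00 for MRPL18, 0.95, 0.85 and 0.91 for MRPL19, and 0.56, 0.77 and 0.52 for MRPL10.

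MRPS31, a small subunit protein of mitochondria alone, rose from 12.66, 12.74 and 12.63 to 13.41, 13.43 and 13.40 after IPPK knock-down. The IPPK arrays were nearly equal and all above control, with a log2 fold change of 0.74 ± 0.05 (SE, limma adjusted p = 6.3e-07). MRPL42 rose to 11.73, 11.75 and 11.78 (0.49 ± 0.047 SE, limma adjusted p = 8.0e-06), the opposite of its fall in the other comparisons. MRPS22, another protein without bacterial counterpart, rose from 12.77, 12.78 and 12.74 to 13.26, 13.28 and 13.23 (0.49, limma adjusted p = 5.1e-05) and was called in neither other comparison (0.08 and 0.03). MRPS18A rose to 12.96, 12.98 and 12.97 (0.51, limma adjusted p = 9.2e-06), with all 3 arrays above control. Within slides the rise was 0.75, 0.69 and 0.77 for MRPS31, 0.47, 0.47 and 0.54 for MRPL42, 0.49, 0.50 and 0.50 for MRPS22, and 0.46, 0.55 and 0.52 for MRPS18A.

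The comparisons with control share the 3 control arrays, so the members' directions in them are not independent and are set out side by side. Called higher in all 3 were 9 members, 11.7%, against 13.1% of all genes tested: MRPL18, MRPL19, MRPL34, MRPS2, MRPS7, MRPS12, MRPS14, MRPS24 and MRPS26. In the order DBP5, GLE1, IPPK the log2 fold changes were 0.67, 0.71 and 1.02 for MRPL18, 0.85, 0.59 and 0.90 for MRPL19, and 0.82, 0.94 and 1.03 for MRPS14. MRPS24 was at 0.16, 0.67 and 0.40, with 16.82, 16.78 and 16.82 on the DBP5 arrays and 17.06, 17.01 and 17.06 on the IPPK arrays. Its DBP5 call (limma adjusted p = 0.0188) was lost without control replicate 1 (0.0609) or control replicate 3 (0.0733). It was also lost with 75th percentile scaling (limma adjusted p = 0.128), normexp background correction (0.058), the values of the authors (0.0695) and only the 6 arrays compared (0.0857). MRPS7 was at 0.34, 0.51 and 0.43, and MRPS26, a protein without bacterial counterpart, at 0.30, 0.19 and 0.37. MRPS12, a protein of the decoding site in bacterial ribosomes, was at 0.15, 0.29 and 0.17. Its DBP5 call was lost without any 1 array other than DBP5 replicate 1 and GLE1 replicates 1 and 2 (limma adjusted p from 0.0535 to 0.132), and its IPPK call without control replicate 1 or 2 or any 1 IPPK array (0.0562 to 0.08). The DBP5 call of MRPS12 was lost too with 75th percentile scaling (limma adjusted p = 0.0885), no filter on dim probes (0.0694) and only the 6 arrays compared (0.0898).

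Called lower in all 3 were 6 members, 7.79%, against 12.5% of all genes tested: MRPL17, MRPL27, MRPL33, MRPL46, MRPL49 and MRPS28. A test on the 3 within-slide differences, with its p values adjusted in the same way, kept none of the 6 in all 3 comparisons, where it called 4.78% of all genes lower. It called 4 members higher in all 3, 5.19%, against 5.42% of all genes. MRPL33 read 15.05, 15.09 and 14.98 in control, 14.80, 14.86 and 14.78 after DBP5, 14.24, 14.28 and 14.30 after GLE1, and 14.88, 14.84 and 14.85 after IPPK knock-down. Every knock-down array was below every control array, and the GLE1 arrays were lowest (log2 fold changes −0.23, −0.77 and −0.18; limma adjusted p = 0.00165, 1.4e-07 and 0.00589). MRPL17 read 13.27, 13.31 and 13.21 in control, 13.13, 13.07 and 13.01 after DBP5, 12.61, 12.60 and 12.51 after GLE1, and 13.11, 13.11 and 13.12 after IPPK knock-down. Its changes were −0.19, −0.69 and −0.15 on arrays that were all below control (limma adjusted p = 0.00672, 5.5e-07 and 0.0246). The IPPK call of MRPL17 was lost without control replicate 1 (0.0663), control replicate 2 (0.0783), or IPPK replicate 1 (0.0561), 2 (0.0631) or 3 (0.0589), and with normexp background correction (0.0705). MRPL46 was at −0.21, −0.21 and −0.33, and its DBP5 and GLE1 calls (limma adjusted p = 0.0258 and 0.0231) were weak. The DBP5 call was lost without control replicate 1 (0.0584), control replicate 2 (0.0957) or DBP5 replicate 3 (0.0939), and the GLE1 call without control replicate 1 (0.0521), control replicate 2 (0.0878) or GLE1 replicate 1 (0.0737). Both were also lost with normexp background correction (limma adjusted p = 0.095 and 0.0539) and with the values of the authors (0.091 and 0.0725), and the DBP5 call with only the 6 arrays compared (0.061). MRPL17, MRPL33 and MRPL27 are homologs of bacterial large subunit proteins. Within slides the changes of MRPL33 were −0.25, −0.23 and −0.20 after DBP5, −0.81, −0.81 and −0.68 after GLE1, and −0.17, −0.25 and −0.13 after IPPK knock-down, and those of MRPL17 were −0.15, −0.24 and −0.20, then −0.66, −0.71 and −0.70, then −0.17, −0.19 and −0.09.

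Directions differed for 17 members, which were called lower in 1 comparison with control and higher in another, 22.1% against 14% of all genes tested. With this paired test there were 5, 6.49%, against 5.93% of all genes. This limma count was 10 without control replicate 3, 11 without IPPK replicate 2 and 11 without IPPK replicate 3, so part of it rests on single arrays. Of the 17, 13 belong to the large subunit and 4, MRPS10, MRPS18B, MRPS27 and MRPS31, to the small subunit. None of them was at least 1.5-fold lower in 1 comparison and at least 1.5-fold higher in another. In the same order MRPL42 was at −0.91, −0.93 and 0.49 and MRPS31 at −0.05, −0.41 and 0.74, with 12.30, 12.28 and 12.23 on its GLE1 arrays. MRPS18B was at −0.26, −0.51 and 0.33, at 15.92, 15.89 and 15.88 on its IPPK arrays; its second probe gave 0.09 after IPPK knock-down and was not called (limma adjusted p = 0.304). MRPL21 was at −0.30, −0.56 and 0.18, and its IPPK call (limma adjusted p = 0.0263) was lost without control replicate 1 (0.0654) or 3 (0.0941) or IPPK replicate 1 (0.0562), 2 (0.0741) or 3 (0.0534). It was also lost with 75th percentile scaling (limma adjusted p = 0.0757), normexp background correction (0.0638) and the values of the authors (0.098).

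MRPL23 and MRPS27 had opposite calls that rested on values near the threshold. After IPPK knock-down MRPL23 read 13.14, 13.11 and 13.15, above control by 0.18 (limma adjusted p = 0.0426). With the slide as a replicate block in the fit, this call was lost (limma adjusted p = 0.0586). Other values were lower: 0.17 with 75th percentile scaling (limma adjusted p = 0.054), 0.11 with normexp background correction (0.204) and 0.10 with the values of the authors (0.263), none of them called. With no filter on dim probes it was not called either (limma adjusted p = 0.0623). It was also lost without any 1 array other than control replicate 1, DBP5 replicate 1 and DBP5 replicate 3, with limma adjusted p from 0.0515 to 0.114 in those 9 fits. MRPS27 was higher after DBP5 knock-down by 0.14 (limma adjusted p = 0.042), at 13.13, 13.18 and 13.11. This call was lost without any 1 array other than DBP5 replicate 3, GLE1 replicate 1 and GLE1 replicate 2, with limma adjusted p from 0.0524 to 0.125. It was also lost with 75th percentile scaling (limma adjusted p = 0.0755), normexp background correction (0.0542), no filter on dim probes (0.0648) and only the 6 arrays compared (0.0975). Beside MRPL23, the block ended the calls of MRPS12 after DBP5 knock-down (0.056) and MRPL35 after IPPK knock-down (0.105). MRPL35 lacked a value on IPPK replicate 1, and its IPPK call was lost without any 1 array other than GLE1 replicates 2 and 3 and IPPK replicate 1 (limma adjusted p from 0.051 to 0.171). Calls gained with the block were those of MRPL37 after DBP5 knock-down (0.0329), MRPS9 (0.0303) and MRPL15 (0.0483) after GLE1 knock-down and MRPL50 after IPPK knock-down (0.0332), so that MRPS9 was then called higher in all 3 comparisons. The block gave 17 large subunit genes lower and 7 small subunit genes higher with DBP5 siRNA, 9 large and 14 small subunit genes higher with GLE1 siRNA, and 21 large subunit genes higher with IPPK siRNA. Over all 20821 genes it gave 6147 lower and 5854 higher with DBP5 siRNA, against 5733 and 5569 without the block. With GLE1 siRNA 6797 of all genes were higher (6361 without the block), and with IPPK siRNA 6071 (5687 without it).

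The paired test within slides, with p values adjusted by Benjamini-Hochberg over all genes, ended many more calls. It kept 13 of the 39 member calls after DBP5 knock-down (33.3%, against 42.8% of the limma calls over all genes), 40 of 57 for GLE1 (70.2%, against 72.5%) and 32 of 50 for IPPK (64%, against 62.9%). In the same order it lost 26, 17 and 17 member calls, with MRPL35 untested for IPPK. Of the genes named by rule, those lost for DBP5 were MRPL10, MRPL12, MRPL16, MRPL17, MRPL21, MRPL47, MRPL49, MRPS6, MRPS7, MRPS9, MRPS16, MRPS24, MRPS26, MRPS27 and MRPS28. For GLE1 they were MRPL43, MRPL47, MRPS6, MRPS10 and MRPS18B, and for IPPK MRPL17, MRPL21, MRPL23, MRPL33, MRPL57, MRPS18B and MRPS24. The DBP5 falls of MRPL42, MRPL30, MRPL33, MRPS18B, MRPS18C and MRPS23 and the DBP5 rises of MRPL18, MRPL19, MRPL52 and MRPS14 were kept.

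Tested directly against each other, the knock-downs gave the most calls between GLE1 and IPPK, among the members as over all genes. After GLE1 knock-down 40 of the 77 members were lower than after IPPK knock-down, against 30.7% of all genes, and 10 were higher, against 29.4%. Of the large subunit genes 27 were lower and 8 higher, and of the small subunit genes 13 were lower and 2, MRPS10 and MRPS24, higher. Against DBP5 knock-down, 29 members were lower after GLE1 knock-down (28% of all genes) and 12 higher (26.5%). In the small subunit that comparison gave 7 lower and 6 higher, and with the processed values of the authors 7 lower and 10 higher, so that the share of higher genes moved from 46.2% to 58.8%. After DBP5 knock-down 35 members were lower than after IPPK knock-down, against 25.1% of all genes, and 9 were higher, against 23.8%. MRPL9 and MRPS10 had the largest positive values in that comparison, 1.33 and 1.21, and MRPL42 the largest negative value, −1.40.

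**Figure D3:**
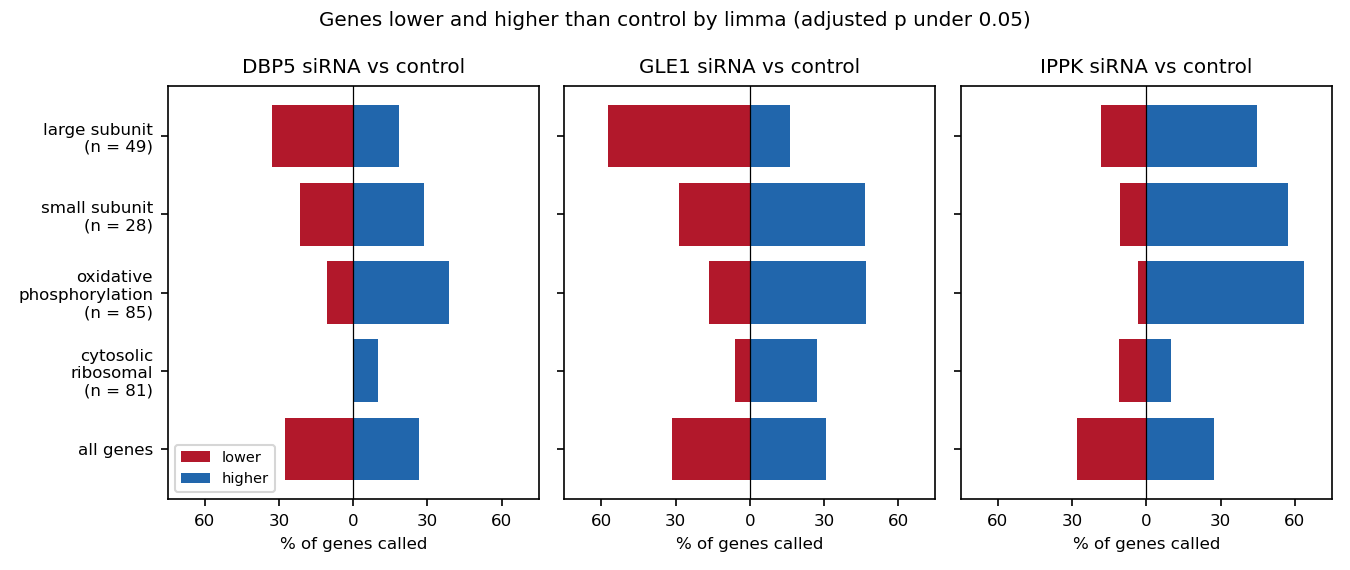
Percentage of genes called lower (to the left) and higher (to the right) than control by limma, adjusted p under 0.05, for each knock-down. Bars show the 49 large subunit genes, the 28 small subunit genes, 85 oxidative phosphorylation subunits, 81 cytosolic ribosomal proteins and all 20821 genes tested; the large subunit bar reaches 57.1% lower after GLE1 knock-down.

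Members with no call in any comparison with control numbered 7: MRPL24, MRPL32, MRPL38, MRPL55, MRPS17, MRPS21 and MRPS30. They are 9.09% of the members, against 21.3% of all genes tested. The other 70 were called at least once (90.9%, against 78.7%). Called after DBP5 knock-down and in neither other comparison were 4 members (5.19%, against 3.9% of all genes), MRPL30, MRPL48, MRPL52 and MRPS23, of which MRPL48 is named after its values were seen. For GLE1 there were 8 such members (10.4%, against 9.08%) and for IPPK 6 (7.79%, against 5.77%). Being called in 1 comparison and not in another is not a test of the difference between them.

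Of the members, 12 had 2 probes each, and in 2 of these genes, MRPL52 and MRPL43, the probes were called in opposite directions. MRPL52 was higher after DBP5 knock-down by the brighter probe (0.23, limma adjusted p = 0.000835), at 14.54, 14.50 and 14.44 against 14.28, 14.28 and 14.23. The dimmer probe of the same accession was lower (−0.43, limma adjusted p = 0.0387). That probe was also called lower after GLE1 knock-down (−0.58, limma adjusted p = 0.0082), where the brighter probe was not called (0.04). MRPL43 was lower after GLE1 knock-down by the brighter probe (−0.18, limma adjusted p = 0.0418), at 13.20, 13.28 and 13.18 against 13.46, 13.43 and 13.30. A much dimmer probe, for another transcript of the gene, was higher (0.22, limma adjusted p = 0.0123). The MRPL43 call was lost without control replicate 1 or 2, DBP5 replicate 3, GLE1 replicate 1 or 3, or IPPK replicate 1, 2 or 3, with limma adjusted p from 0.0508 to 0.134. It was also lost with quantile normalization (limma adjusted p = 0.0603), normexp background correction (0.0883), spots averaged after cyclic loess (0.0895) and no filter on dim probes (0.0631), and with the values of the authors, where it was at −0.10 (0.235). The direction of these 2 genes therefore depends on the probe, and why was not tested.

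The 5 mitochondrial ribosomal proteins that carry other names moved little. AURKAIP1 fell in all 3 comparisons, at −0.17, −0.20 and −0.21, from 14.63, 14.62 and 14.65 in control to 14.42 to 14.51 on the DBP5, 14.41 to 14.48 on the GLE1 and 14.39 to 14.46 on the IPPK arrays. DAP3, a GTP-binding protein of the small subunit, rose after DBP5 (0.27, limma adjusted p = 0.00037) and IPPK knock-down (0.31, adjusted p = 0.000149) and was at −0.11 after GLE1 knock-down (adjusted p = 0.0515). Its values were 15.37, 15.43 and 15.39 in control, and its DBP5 and IPPK arrays were all above them. GADD45GIP1 rose after GLE1 knock-down (0.27, limma adjusted p = 0.0256). PTCD3, a pentatricopeptide protein of the small subunit, was at −0.11, −0.17 and 0.08 and CHCHD1 at −0.05, 0.06 and 0.09, with no call.

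Further lists hold genes that serve the same ribosome, and not all such genes are given here. Of 14 mitochondrial translation factors, 5 fell and 3 rose after DBP5 knock-down, 5 fell and 3 rose after GLE1 knock-down, and 1 fell and 5 rose after IPPK knock-down. GFM1, the elongation factor that drives translocation, read 11.42, 11.40 and 11.37 in control and 9.78, 9.61 and 9.66 after GLE1 knock-down. The GLE1 arrays were all far under control (−1.71, limma adjusted p = 1.3e-09). MTRFR, a rescue factor for stalled ribosomes, fell by 1.44 after GLE1 knock-down, from 13.08, 12.99 and 13.04 to 11.54, 11.63 and 11.62. MTRES1, a mitochondrial RNA-binding protein, rose in all 3 comparisons, by 0.89, 0.46 and 0.65.

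The next list held 26 measured genes for assembly of the mitochondrial ribosome and modification of its RNA. After DBP5 knock-down 13 fell (50%, against 27.5% of all genes) and 8 rose (30.8%, against 26.7%). After GLE1 knock-down 14 fell (53.8%, against 31.5%) and 3 rose (11.5%, against 30.6%). After IPPK knock-down 8 fell (30.8%, against 28%) and 10 rose (38.5%, against 27.3%). METTL15, a methyltransferase for the small subunit RNA, read 10.74, 10.80 and 10.74 in control and 8.78, 8.85 and 8.81 after GLE1 knock-down, with no overlap (−1.95, limma adjusted p = 3.4e-10). MRM1, which methylates the large subunit RNA, fell in all 3 comparisons, at −1.02, −1.13 and −1.13. NSUN4, a further RNA methyltransferase of these ribosomes, fell by 1.12 after DBP5 knock-down.

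Of 17 genes for expression and upkeep of mitochondrial DNA, 5 fell with DBP5 siRNA (29.4%, against 27.5% of all genes) and 3 rose (17.6%, against 26.7%). With GLE1 siRNA 3 fell (17.6%, against 31.5%) and 5 rose (29.4%, against 30.6%). With IPPK siRNA 7 fell (41.2%, against 28%) and 4 rose (23.5%, against 27.3%). TFAM, which packages mitochondrial DNA and starts its transcription, rose in all 3 comparisons (0.45, 0.81 and 0.85).

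Of 9 transcription regulators known for nuclear genes of mitochondria, more were called lower than higher in each comparison, which was not tested as a group. After DBP5 knock-down 6 fell (66.7%, against 27.5% of all genes) and 1 rose (11.1%, against 26.7%). After GLE1 knock-down 5 fell (55.6%, against 31.5%) and 2 rose (22.2%, against 30.6%). After IPPK knock-down 5 fell (55.6%, against 28%) and 1 rose (11.1%, against 27.3%). YY1 read 13.69, 13.77 and 13.63 in control and 12.24, 12.42 and 12.48 after IPPK knock-down, all below control (−1.32, limma adjusted p = 3.9e-07), and was at −0.07 and −0.09 after DBP5 and GLE1 knock-down. GABPA, an ETS factor, fell by 0.80 after DBP5 knock-down, and its partner GABPB1 fell in all 3 comparisons (−0.83, −0.52 and −0.87). NRF1 fell after GLE1 (−0.67) and IPPK knock-down (−0.39). PPARGC1B, a coactivator, rose by 0.79, 1.52 and 1.01.

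Counts for the proteins of the cytosolic ribosome and for the subunits of oxidative phosphorylation stand beside those of the members. Of all genes tested, 27.5% were lower and 26.7% higher after DBP5, 31.5% and 30.6% after GLE1, and 28% and 27.3% after IPPK knock-down. Of 81 cytosolic ribosomal protein genes, 8 rose after DBP5 knock-down and the other 73 were not called. That is 9.88% higher. After GLE1 knock-down 5 fell (6.17%) and 22 rose (27.2%), and after IPPK knock-down 9 fell (11.1%) and 8 rose (9.88%). The medians were 0.03, 0.09 and −0.05 in the order DBP5, GLE1, IPPK. Of 85 tested oxidative phosphorylation genes, 9 fell and 33 rose after DBP5 knock-down, 14 fell and 40 rose after GLE1 knock-down, and 3 fell and 54 rose after IPPK knock-down, with medians of 0.12, 0.14 and 0.20. No test compared these lists with the members, and the counts describe these 12 arrays.

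Promoter sequences were at hand for 69 of the 77 members, from 250 bases before to 50 after the start, in 85 windows credited to RefSeq on GRCh38.p14. Motifs of 3 regulators in the list above were searched on both strands. The YY1 motif AAGATGGCG occurred in 13 of the 69 members, 18.8%, against 2.14% of all 27305 genes with a promoter and 3.21% of the 15843 coding genes among them. The ETS motif CCGGAAGT occurred in 12 members, 17.4%, against 4.95% and 6.97%, and the NRF1 motif GCGCATGCG in 3 (MRPL17, MRPL22 and MRPS18C), 4.35%, against 2.34% and 3.11%. A match describes the letters and was not tested as a site of binding.

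Promoters of 7 members named above, chosen after their values were seen, are shown from 150 bases before to 30 after the start, so that a reader can see what they hold. Capitals mark the YY1 motif in MRPL42, MRPS10 and MRPS24, beginning 8, 9 and 19 bases after the start, and the ETS motif, read on the opposite strand as ACTTCCGG, in MRPL18 and MRPS34, beginning 27 and 20 bases before it. MRPL42 (chr12:93467364-93467543, plus strand) fell after DBP5 and GLE1 and rose after IPPK knock-down, MRPS10 (chr6:42217832-42218011, minus strand) fell after IPPK knock-down, and MRPS24 (chr7:43869488-43869667, minus strand) rose in all 3 comparisons. MRPL18 (chr6:159790317-159790496, plus strand) rose in all 3 as well, and MRPS34 (chr16:1773105-1773284, minus strand) fell after GLE1 knock-down. MRPS14 (chr1:175023396-175023575, minus strand) and MRPL19 (chr2:75646633-75646812, plus strand), which also rose in all 3, held none of the 3 motifs in their windows.
MRPL42: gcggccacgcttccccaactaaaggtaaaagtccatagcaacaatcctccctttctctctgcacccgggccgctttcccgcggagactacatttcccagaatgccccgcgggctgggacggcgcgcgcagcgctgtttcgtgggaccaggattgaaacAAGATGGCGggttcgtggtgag
MRPS10: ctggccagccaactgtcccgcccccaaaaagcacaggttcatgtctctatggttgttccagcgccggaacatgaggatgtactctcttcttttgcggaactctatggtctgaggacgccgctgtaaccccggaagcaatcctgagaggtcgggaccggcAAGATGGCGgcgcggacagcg
MRPS24: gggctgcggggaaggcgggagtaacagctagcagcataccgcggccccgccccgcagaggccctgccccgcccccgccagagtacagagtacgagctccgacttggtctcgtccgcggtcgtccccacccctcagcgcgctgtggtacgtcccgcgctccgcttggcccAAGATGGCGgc
MRPL18: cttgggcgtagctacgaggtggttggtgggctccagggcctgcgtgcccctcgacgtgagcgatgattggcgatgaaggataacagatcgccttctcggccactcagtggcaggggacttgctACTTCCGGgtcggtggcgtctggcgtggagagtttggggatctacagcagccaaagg
MRPS34: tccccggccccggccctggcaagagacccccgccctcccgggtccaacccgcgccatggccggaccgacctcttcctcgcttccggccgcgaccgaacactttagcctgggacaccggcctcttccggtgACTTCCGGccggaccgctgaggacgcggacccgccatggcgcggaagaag
MRPS14: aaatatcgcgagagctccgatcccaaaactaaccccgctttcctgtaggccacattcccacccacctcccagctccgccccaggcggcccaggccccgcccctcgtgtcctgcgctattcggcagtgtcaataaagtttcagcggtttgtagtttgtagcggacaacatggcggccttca
MRPL19: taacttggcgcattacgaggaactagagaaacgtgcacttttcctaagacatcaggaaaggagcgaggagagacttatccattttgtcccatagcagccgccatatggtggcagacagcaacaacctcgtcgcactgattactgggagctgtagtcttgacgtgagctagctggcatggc

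Pairs of genes that share a start region moved in the same direction in some cases and in opposite directions in others. For 18 members a coding gene that is not itself a member starts within 1000 bases on the other strand, 45 to 990 bases away; these pairs were listed after the values had been seen. After DBP5 knock-down both genes were called in 7 pairs, with the same direction in 4 and opposite directions in 3. After GLE1 knock-down both were called in 10 pairs, 4 with the same and 6 with opposite directions, and after IPPK knock-down in 8 pairs, 5 with the same and 3 with opposite directions. Of all genes, 27.5% were lower and 26.7% higher after DBP5, 31.5% and 30.6% after GLE1, and 28% and 27.3% after IPPK knock-down. Pairs of other genes were not counted, so these counts show nothing particular to shared starts. In addition, the members MRPL46 and MRPS11 start 320 bases from each other. MRPL46 fell in all 3 comparisons, and MRPS11 was higher after GLE1 (0.13) and IPPK knock-down (0.15) and not called with DBP5 siRNA (0.09). The GLE1 call of MRPS11 was lost without control replicate 1 or 2 or any 1 GLE1 array (limma adjusted p from 0.0565 to 0.0785), with 75th percentile scaling (0.0888) and with normexp background correction (0.0981). Its IPPK call was lost with normexp background correction (limma adjusted p = 0.135) and with the values of the authors (0.329). MRPL18 starts 210 bases from TCP1, a subunit of the cytosolic chaperonin, which fell in all 3 comparisons (−0.54, −1.07 and −0.37, limma adjusted p = 0.000109, 4.2e-07 and 0.00138) where MRPL18 rose. MRPL27 starts 45 bases from EME1, a DNA repair nuclease subunit, and both fell in all 3 comparisons, EME1 at −0.56, −1.58 and −0.67. MRPL49 starts 49 bases from FAU, a cytosolic ribosomal protein gene, which was at −0.08, −0.01 and −0.16 and not called. MRPS12 starts 181 bases from SARS2, a mitochondrial synthetase, which rose after DBP5 (0.30) and IPPK knock-down (0.55) and fell after GLE1 knock-down (−0.34), where MRPS12 rose.

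**Figure D4:**
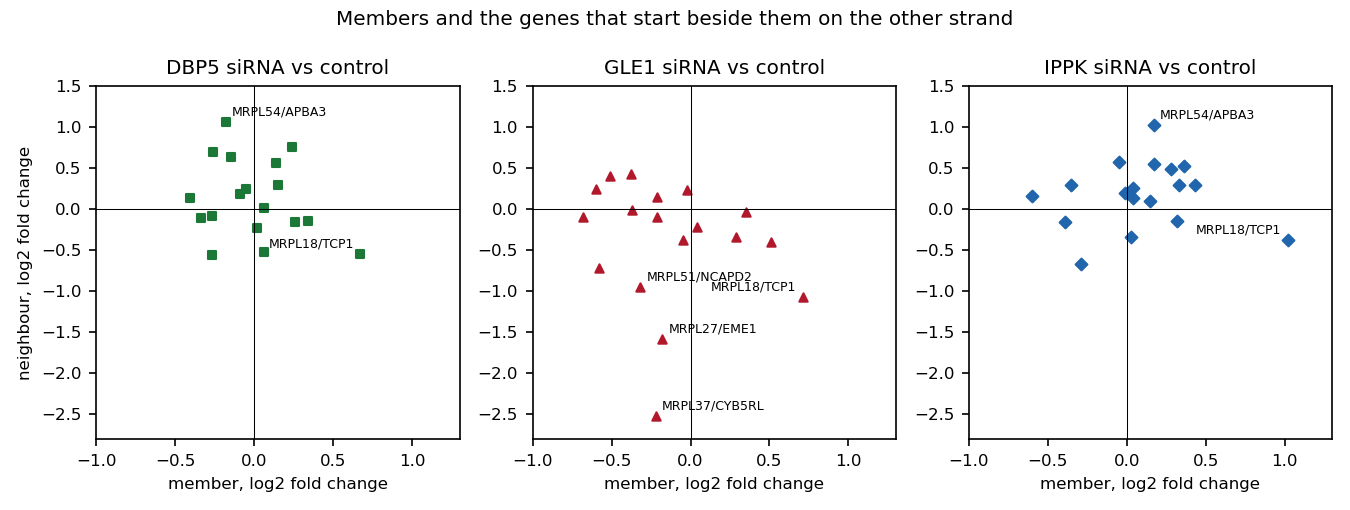
Log2 fold change against control of 18 members (x axis) and of the gene that starts beside each on the other strand (y axis), after each knock-down. Points are limma estimates from 3 arrays per group; MRPL18 and TCP1 lie at 0.71 and −1.07 after GLE1 knock-down, and MRPL27 and EME1 at −0.18 and −1.58.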

How the data were processed

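Cytoplasmic RNA was measured on 12 one-colour Agilent arrays. Spot intensities were deposited by the authors as Feature Extraction output, with local background subtracted. The authors also deposited log2 values, described as LOESS-normalized, which followed the log2 of the unsubtracted spot signal (r from 0.99982 to 0.99999) and served as an alternative.

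Background-subtracted intensities were put on a log2 scale, and outlier and control spots were left out. The spots of a probe were averaged, and arrays were then normalized by fast cyclic loess. This order was chosen after seeing the data, as the one of several tried that matched the counts of an earlier analysis of these files. Of 34127 probes, 26449 (77.5%) were named by accession through RefSeq on GRCh38.p14, while the array design uses hg19. The brightest probe stood for each gene, and 12 of 77 members had 2.

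Groups were compared with limma 3.58.1 in R 4.3.3. On simulated data with independent noise and 200 genes changed 2-fold, the fit recovered 87% (DBP5), 81.5% (GLE1) and 89.5% (IPPK) of them. The simulation held no slide effect and no smaller changes, so it does not cover the fit on those. Arrays give no molecule counts, and 3 arrays per group limit the precision. Replicate numbers mark the slide: deviations from group means correlated at 0.318 to 0.513 in 18 same-number pairs and at −0.285 to −0.0495 in 36 others. The numbers therefore pair the arrays.

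Genes were named by rule, per knock-down and subunit: the 4 largest falls and the 4 largest rises among called members with all 3 arrays on 1 side of control, members called in the same direction in all 3 comparisons and 1.5-fold in at least 1, members 1.5-fold in opposite directions, members whose 2 probes were called with opposite signs, the siRNA targets, and the 5 mitochondrial ribosomal proteins of other name. Other genes, and the pairs of neighbouring starts, were chosen after their values were seen. The members and lists were chosen with earlier results of these data known.

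Alternatives were 75th percentile scaling, quantile normalization, normexp correction (offset 50, on median signals), the values of the authors, other filters on dim probes, other choices of probe, the slide as a replicate block, fits on 6 arrays alone, fits without any 1 array, and a two-sided t-test paired by slide with Benjamini-Hochberg adjusted p values. The authors listed array genes by rank product, which was not run.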

Additional observations from a re-analysis of the deposited data

Results flagged for a closer look

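Some members were called lower than control after 1 knock-down and higher after another, with a difference between the knock-downs that limma called. For GLE1 against IPPK knock-down the log2 difference was −1.13 for MRPL23 (limma adjusted p = 1.6e-07), −1.42 for MRPL42 (4.0e-09), −1.14 for MRPS31 (2.3e-08) and 1.31 for MRPS10 (2.5e-08). In the same comparison it was −0.89 for MRPL39 (limma adjusted p = 1.5e-07) and −0.97 for MRPL58 (9.2e-07), which are named after their values were seen. For DBP5 against IPPK knock-down MRPL42 was at −1.40 (limma adjusted p = 1.5e-08). MRPS27 was at −0.82 for GLE1 against DBP5 knock-down (limma adjusted p = 4.0e-07). A t-test paired by slide, with adjusted p values, did not call the IPPK rise of MRPL39, MRPL58 or MRPL23, the GLE1 rise of MRPS10 or the DBP5 rise of MRPS27.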

How the results depend on the processing

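Of 1357 alternative values for 79 gene results of 36 genes, 1256 kept direction and call, 97 were weaker and 4 reversed. The 36 genes were named from called results, and many alternatives reuse the same arrays, so part of this agreement was built in. The paired t-test alone weakened 27 of the 79. MRPL43 after GLE1 knock-down was 0.02 with the mean of its probes and 0.22 with the second probe, and MRPL52 after DBP5 knock-down −0.10 and −0.43; the cause was not tested. Of these gene results the replicate block ended 1 call, that of MRPL23 after IPPK knock-down, and changed no other.

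The paired t-test, adjusted over all genes, uses fewer degrees of freedom and called fewer genes. Lower and higher were 6 and 3 large and 3 and 2 small subunit genes after DBP5 knock-down (12.5% and 11.7% of all genes). After GLE1 knock-down they were 21 and 5 large and 6 and 9 small subunit genes (24% and 23.2%). After IPPK knock-down they were 5 and 13 large and 3 and 11 small subunit genes (17.7% and 18.9%). GLE1 against DBP5 gave 15 and 4 members (13.4% and 12.1%) and DBP5 against IPPK 10 and 5 (9.95% and 9.02%). It called 0 members lower (4.78% of all genes) and 4 higher (5.42%) in all 3 comparisons and 5 in opposite directions (5.93%). Small subunit genes higher after DBP5 knock-down numbered 5 with 75th percentile scaling and 5 with only the 6 arrays compared.

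Medians moved, and the cause was not tested. With 75th percentile scaling they were −0.11 (large) and 0.05 (small) after DBP5, −0.23 and 0.11 after GLE1, and 0.22 (small) after IPPK knock-down. With normexp they were −0.22 and 0.11 after GLE1 and 0.21 (small) after IPPK knock-down. The values of the authors gave 0.06 (small, DBP5), 0.07 (large, IPPK) and 0.22 (small, IPPK), and the mean of the probes 0.20 (small, IPPK). Averaging spots after cyclic loess, added after seeing the data, gave 0.10 (small, DBP5), −0.16 (large, GLE1) and 0.18 (small, GLE1). Counting MRPS18A and MRPS30 with the large subunit was also added then.

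Leaving out 1 array gave 5 to 10 small subunit genes higher after DBP5 knock-down and 10 to 17 members in opposite directions. Medians then ran from 0.06 to 0.08 (small, DBP5), −0.22 to −0.18 (large, GLE1), 0.12 to 0.14 (small, GLE1) and 0.21 to 0.29 (small, IPPK). The second probes of MRPL43 and MRPS18C were dim, with mean log2 intensities of 5.51 and 5.49. They were still well above background on all 12 arrays, as were the main probes of all members.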
